A study of Homo sapiens with 4 samples.

Results

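The genes described here encode the subunits of the proteasome and the proteins that assemble, activate and inhibit it. They were taken by symbol, as every gene whose symbol is PSM followed by a letter from A to G and a number, which gave 48 genes, with 1 identifier each, of 41084 Ensembl identifiers measured, 35690 of them with a symbol. Of these, 46 held enough counts to be tested. RNA came from OCI-AML3, an established human acute myeloid leukaemia line, in 4 libraries, whose genotype label was Plex CEBPB for 2 of them and Plex Control for the other 2, with no further treatment named. Nothing in the sources used here explains the word Plex or says whether the libraries of a group came from separate cultures, so p-values measure the spread between these libraries, which may be technical. CEBPB encodes the transcription factor C/EBPβ, which the title of the series links to IL-1β, TNFα and resistance of monocytic leukaemia cells to drugs.

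The proteasome degrades proteins marked with ubiquitin. Its barrel-shaped core particle has outer rings of alpha subunits (PSMA genes), which gate the entrance, and inner rings of beta subunits (PSMB genes), which hold the proteolytic sites. A regulatory particle of ATPases (PSMC genes) and other subunits (PSMD genes) caps the barrel, recognises and unfolds substrates, while PSME genes encode alternative caps, PSMF1 an inhibitor and PSMG genes chaperones that build the alpha ring. In cells exposed to interferon, and in many blood cells, PSMB8, PSMB9 and PSMB10 take the place of PSMB5, PSMB6 and PSMB7 and form the immunoproteasome, which changes the peptides offered on MHC class I.

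The deposited counts summed to between 18151225 and 21950575 per library. CEBPB itself was at 4.72 TPM (a level relative to transcript length and library total) in Control 1, 4.47 in Control 2, 536 in CEBPB 1 and 339 in CEBPB 2. Of 7 myeloid markers, CD33 lay between 46.5 and 53.0 TPM and did not pass the test described below, 2 were higher in the CEBPB libraries (LYZ, 1308 to 7921 TPM over the 4 libraries, and ITGAM) and 4 were lower (SPI1, 103 to 223 TPM, CD4, CSF1R and MPO). MPO was at 1.79 TPM or less. The part of this shift in the proteasome results was not tested. Among 12 markers of T, B, epithelial, fibroblast, erythroid and endothelial cells, CD3E, KRT18, HBB and CDH5 were at 0 in all 4 libraries and the others were at 1.84 TPM or less.

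Short promoter stretches are shown first for the genes whose sequence carries a motif discussed with the results. They run from 80 bases before to 20 bases after the RefSeq transcription start (build GRCh38.p14), 5′ to 3′ on the gene's strand. Capitals mark an interferon-stimulated response element, searched on both strands as GAAA, any 2 bases and GAAA. PSMB10, PSME1, PSME2 and PSMG4 were lower in the CEBPB libraries, PSMB4 was higher and PSMB8 did not pass the test.
PSMB10, chr16:67936831-67936930, minus strand: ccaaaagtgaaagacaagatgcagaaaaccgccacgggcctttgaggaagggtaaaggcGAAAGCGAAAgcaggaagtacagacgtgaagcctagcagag
PSME1, chr14:24136114-24136213, plus strand: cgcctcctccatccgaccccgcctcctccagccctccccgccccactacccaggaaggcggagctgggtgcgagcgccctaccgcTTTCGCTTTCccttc
PSME2, chr14:24146591-24146690, minus strand: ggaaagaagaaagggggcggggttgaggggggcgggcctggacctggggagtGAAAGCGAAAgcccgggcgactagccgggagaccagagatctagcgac
PSMG4, chr6:3258867-3258966, plus strand: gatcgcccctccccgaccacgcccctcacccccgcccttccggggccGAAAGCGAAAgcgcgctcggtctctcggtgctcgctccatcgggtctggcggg
PSMB8, chr6:32844028-32844127, minus strand: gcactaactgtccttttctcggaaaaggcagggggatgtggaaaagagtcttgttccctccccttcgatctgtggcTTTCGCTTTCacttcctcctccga
PSMB4, chr1:151399493-151399592, plus strand: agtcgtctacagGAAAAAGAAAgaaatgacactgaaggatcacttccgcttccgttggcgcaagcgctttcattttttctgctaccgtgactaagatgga
For comparison, PSMD3 and PSMD12, lid subunits that were higher, are shown with capitals on an antioxidant or NRF1 type element, searched as TGACNNNGC on both strands. This element was found in 15 members, of which 4 were higher, 3 lower (PSME1, PSME2 and PSMG1) and 8 did not pass. NRF1 (gene NFE2L1) is the transcription factor known for raising proteasome genes together when the proteasome is inhibited. The PSMD3 stretch is the same window as above, and that of PSMD12 begins 190 bases before the start.
PSMD3, chr17:39980727-39980826, plus strand: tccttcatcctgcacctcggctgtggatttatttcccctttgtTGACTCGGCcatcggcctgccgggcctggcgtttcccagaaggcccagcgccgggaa
PSMD12, chr17:67366668-67366767, minus strand: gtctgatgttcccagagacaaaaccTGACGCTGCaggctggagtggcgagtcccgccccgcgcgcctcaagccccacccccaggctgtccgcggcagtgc

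In the CEBPB libraries most ATPases and lid subunits of the regulatory particle and some core subunits were modestly higher, while the immunoproteasome subunit PSMB10, 3 of 4 activators and 3 of 4 assembly chaperones were lower. Of the 46 tested members 17 were higher and 7 lower (edgeR quasi-likelihood test, Benjamini-Hochberg adjusted p under 0.05 over 13698 identifiers), and 22 did not pass. Over all identifiers 23.7% were called higher, 24.7% lower and 48.5% in either direction, against 52.2% of the members. The share of members called was thus close to that of all identifiers. The median log2 fold change was 0.11 over the members and 0.00092 over all identifiers. Against a 1.5-fold change, which 8.66% of identifiers exceeded upward and 8.67% downward by edgeR's test, 0 members were higher and 3 were lower, namely PSMB10, PSMG1 and PSMG4. At an unadjusted p under 0.05, that test gave 1 member higher, PSMD6, and 4 lower.

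The scaling of the libraries sets where 0 lies. edgeR's trimmed mean of M values placed the middle of all identifiers at 0, whereas scaling by library totals, as in TPM, raised it by 0.18 on the log2 scale, so a ratio of TPM values is somewhat above the fold change given beside it. With library totals 26 members were higher and 7 lower, against 32.3% of all identifiers higher and 17.2% lower, and 65.2% of all calls were higher instead of 49%. The 7 lower members kept their direction under every scaling tried. When each library was left out in turn, 6 of the 17 higher members (PSMC2, PSMC6, PSMD2, PSMD6, PSMD10 and PSMD12) and 6 of the 7 lower ones (all but PSME1) kept their call, and the number of higher members was 6 without Control 1 and 8 without Control 2. Each such fit leaves 1 library in a group, and each called fewer of all identifiers as well. Without Control 1 or Control 2, however, a larger share of the higher calls was lost among the members than among all identifiers. The rises of the members were thus sensitive to which control library was kept. In TPM the 2 groups did not overlap for 39 of 46 members, against 77.4% of all identifiers.

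**Figure D1:**
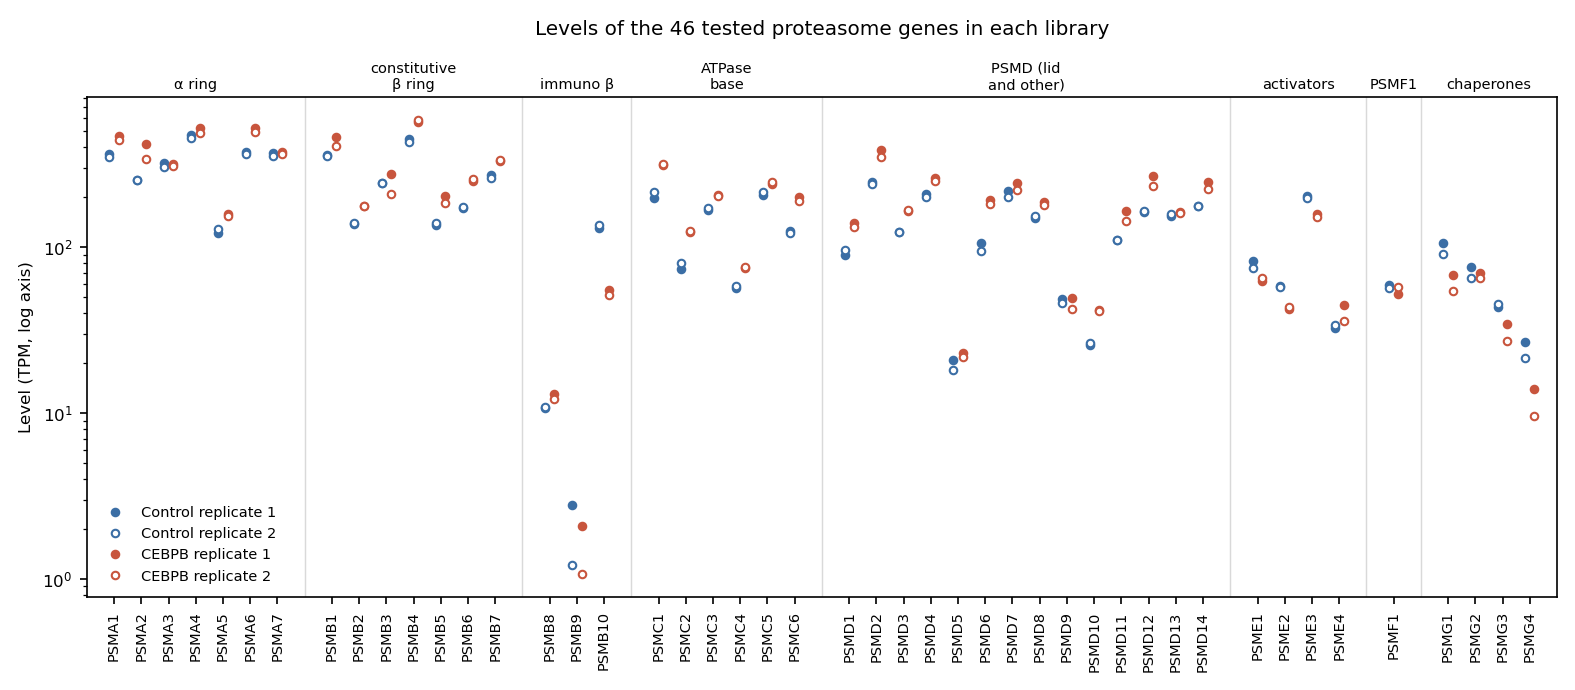
Level of each tested member in the 4 libraries, in TPM on a log axis, grouped by part of the complex. Filled and open points are replicates 1 and 2, with Control in blue and CEBPB in red. Both CEBPB points lie below both Control points for PSMB10, PSME1, PSME2, PSME3, PSMG1, PSMG3 and PSMG4.

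**Figure D2:**
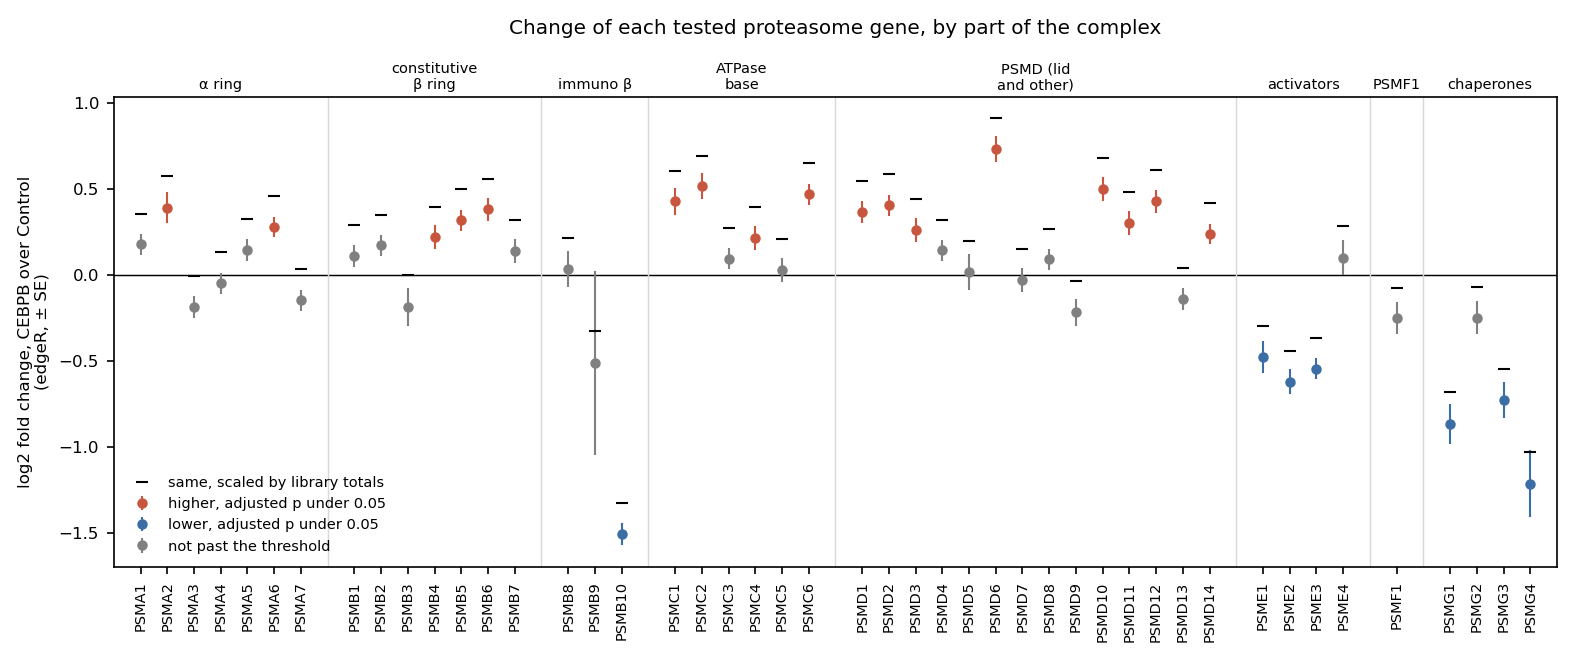
log2 fold change of each tested member (CEBPB over Control, edgeR, ± SE, 2 libraries a group), coloured by call. Black dashes give the value when libraries are scaled by their totals, which lies about 0.18 higher for each gene. Called rises reach 0.73 (PSMD6) and called falls reach -1.5045 (PSMB10).

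PSMB10 showed the largest change of any member. This subunit carries the trypsin-like site of the immunoproteasome in place of PSMB7. Its gene (ENSG00000205220.12, chromosome 16, 67934502 to 67937087, minus strand, GENCODE v29 on GRCh38) was at 130 TPM in Control 1, 136 in Control 2, 54.9 in CEBPB 1 and 51.2 in CEBPB 2. Both CEBPB libraries lay far below both controls. The means were 133 ± 4.48 and 53.0 ± 2.64 TPM (SD, n = 2). The fitted change was -1.5045 on the log2 scale, with an SE of 0.07 and an edgeR adjusted p = 0.000153. Of its 1853 exon bases, 644 also lie in AC040162.1, a gene annotated on the same strand. The call held in each of the 14 alternatives tried, the 1.5-fold test included (edgeR adjusted p = 0.000359).

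The other immunoproteasome subunits did not pass. PSMB8 (ENSG00000204264.12, chromosome 6, 32840717 to 32844703, minus strand), the counterpart of PSMB5, read 10.8 and 10.9 TPM in the controls and 13.1 and 12.1 TPM in the CEBPB libraries. The fitted change was 0.04 on the log2 scale (SE 0.10, adjusted p = 0.801, edgeR), although the 2 groups did not overlap in TPM. PSMB9 (ENSG00000240065.8, chromosome 6, 32844136 to 32859585, plus strand), the counterpart of PSMB6, read 2.77 and 1.21 TPM in the controls and 2.07 and 1.07 TPM in the CEBPB libraries. The groups overlapped (log2 fold change -0.51, SE 0.53, adjusted p = 0.474, edgeR), and it turned to 0.20 when Control 1 was left out (edgeR adjusted p = 0.846).

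The levels of PSMB8 and PSMB9 are uncertain. Both genes lie in the MHC region, where the annotated span of PSMB9 overlaps those of PSMB8 and of TAP1 on the other strand (32845209 to 32853978). HLA-B read 0.645 to 1.27 TPM and HLA-F 0 TPM under their named identifiers, but HLA-E in the same region read 150.33 to 170.08 TPM, so low values were not shared by all class I genes there. B2M, the light chain that pairs with them and is encoded outside that region, read 1517 to 2354 TPM. The files also list 5394 identifiers without a symbol, which took 3.22% to 3.28% of TPM. Whether some of these hold reads of PSMB8 and PSMB9 was not tested. The thymus subunit gene PSMB11 was at 0 TPM in all 4 libraries, and the testis subunit gene PSMA8 was at 0 TPM in 3 and at 0.0565 TPM in Control 2.

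The constitutive subunits that the immune ones replace went up or did not pass. PSMB5, with the chymotrypsin-like site, read 136 and 139 TPM in the controls and 203 and 186 TPM in the CEBPB libraries (0.32, SE 0.06, adjusted p = 0.00923, edgeR). PSMB6, with the caspase-like site, rose from 171 and 175 TPM to 253 and 259 TPM (0.38, SE 0.07, adjusted p = 0.00746, edgeR). PSMB7, with the trypsin-like site, read 271 and 260 TPM in the controls and 329 and 334 TPM in the CEBPB libraries (0.14, SE 0.07, adjusted p = 0.142, edgeR). For all 3, both CEBPB libraries lay above both controls in TPM, a scale on which the groups did not overlap for 77.4% of all identifiers. PSMB7 passed with library totals (0.32, adjusted p = 0.00897, edgeR). PSMB5 and PSMB6 lost their calls when Control 1 was left out (edgeR adjusted p = 0.0966 and 0.0678) and when Control 2 was (0.0676 and 0.0513).

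A ratio of 2 genes within a library does not depend on how libraries are scaled. PSMB10 stood at 47.8% and 52.4% of PSMB7 in Control 1 and Control 2 and at 16.7% and 15.3% in CEBPB 1 and CEBPB 2. The log2 ratio differed by -1.65 between the groups, with SDs of 0.09 in each. PSMB8 stood at 7.93% and 7.84% of PSMB5 in the controls and at 6.44% and 6.53% in the CEBPB libraries, a log2 difference of -0.28 with SDs of 0.01. Neither pair of groups overlapped. PSMB9 stood at 1.62% and 0.687% of PSMB6 in the controls and at 0.821% and 0.413% in the CEBPB libraries, where the groups overlapped. In the exact two-sided permutation test over libraries the 3 ratios had p = 0.333, 0.333 and 0.667 for PSMB8, PSMB10 and PSMB9 (0.5, 0.5 and 0.667 with Benjamini-Hochberg adjustment over the 3). With 2 libraries against 2, 0.333 is the smallest p this test can give, so the design cannot place the ratios past 0.05.

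**Figure D3:**
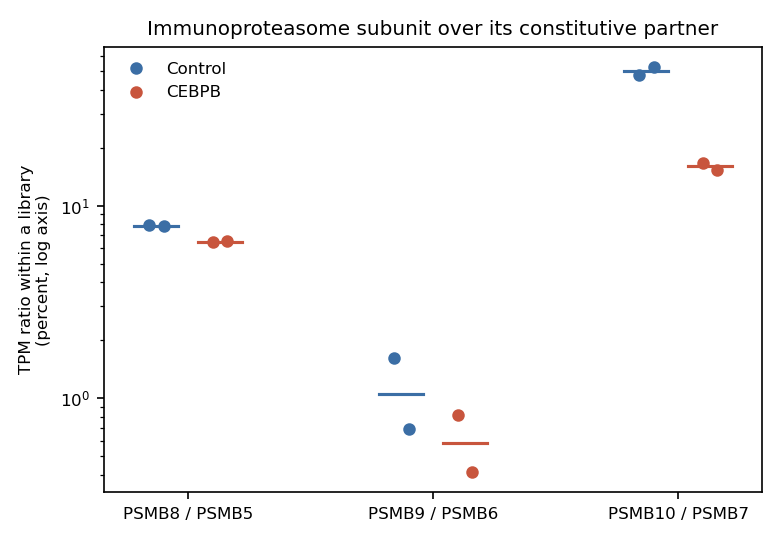
TPM of each immunoproteasome subunit as a percentage of its constitutive partner in the same library, on a log axis. Points are libraries, 2 for Control in blue and 2 for CEBPB in red, and horizontal lines are means of the log2 ratios. PSMB10 over PSMB7 is at 47.8% and 52.4% in the controls and at 16.7% and 15.3% in the CEBPB libraries. Values for PSMB9 over PSMB6 overlap between the groups.

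In the outer ring of the core, 2 of 7 tested alpha subunits rose and 5 did not pass, with a median log2 fold change of 0.15. PSMA2, of whose 5336 exon bases 781 also lie in the same-strand gene AC010132.3, rose from 256 and 256 TPM in the controls to 422 and 341 TPM in CEBPB 1 and CEBPB 2 (0.39, SE 0.09, adjusted p = 0.0165, edgeR). PSMA6 rose from 375 and 364 TPM to 521 and 496 TPM (0.28, SE 0.06, adjusted p = 0.012, edgeR). Of its 6506 exon bases, 919 also lie in the same-strand gene AL121594.1. The smallest change was that of PSMA4, at 473 and 453 TPM in the controls and 526 and 490 TPM in the CEBPB libraries (-0.05, adjusted p = 0.568, edgeR). PSMA4 and PSMA7 changed sign with library totals (0.13 and 0.035), with which 4 alpha subunits rose. PSMA2 and PSMA6 both lost their call without Control 1 (adjusted p = 0.0841 and 0.0921, edgeR) and without Control 2 (0.0822 and 0.125), so 0 alpha subunits were higher there. DESeq2 called 1 alpha subunit lower and recovered reads 2.

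In the inner ring, 3 of 7 constitutive beta subunits rose, PSMB5 and PSMB6 (above) and PSMB4, and 4 did not pass (median 0.17). PSMB4, a subunit without a proteolytic site and the member with the highest level in the CEBPB libraries, read 447 and 431 TPM in the controls and 570 and 588 TPM in the CEBPB libraries (0.22, SE 0.07, adjusted p = 0.0486, edgeR). This gene lost its call without Control 1 (adjusted p = 0.177, edgeR), Control 2 (0.262) or CEBPB 2 (0.0853), with a replicate block (0.0784), with no filter on low counts (0.0588) and with recovered reads (0.0521). Without Control 1 or without Control 2, 0 beta subunits were called higher. With library totals 6 of the 7 rose. PSMB1 had the smallest change (0.11, adjusted p = 0.201, edgeR). Of the constitutive beta subunits PSMB3, picked after its values were seen, had the largest SD between replicates, at 242 and 243 TPM in the controls but 276 and 209 TPM in CEBPB 1 and CEBPB 2 (-0.18, adjusted p = 0.231, edgeR). PSMB3 was called lower when CEBPB 1 was left out (-0.35, edgeR adjusted p = 0.0146).

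The ATPases of the base, which unfold substrates and push them into the core, gave 4 rises among 6 genes (median 0.32), and all 6 rose with library totals. PSMC2 rose from 73.5 and 80.3 TPM to 124 and 125 TPM (0.52, SE 0.08, adjusted p = 0.00377, edgeR). PSMC6 rose from 126 and 123 TPM to 200.3 and 189.9 TPM (0.47, SE 0.06, adjusted p = 0.00237, edgeR), and PSMC1 from 198 and 215 TPM to 312 and 319 TPM (0.43, SE 0.08, adjusted p = 0.00708, edgeR). In each of these the CEBPB libraries lay above the controls. PSMC4 was at 56.5 and 58.4 TPM in the controls and 75.4 and 75.7 TPM in the CEBPB libraries (0.22, SE 0.07, adjusted p = 0.0486, edgeR). PSMC4 lost its call with a replicate block (edgeR adjusted p = 0.0659), with no filter on low counts (0.0702), in DESeq2 (0.111), and without CEBPB 2 (0.108), Control 1 (0.253) or Control 2 (0.179), so 3 ATPases rose with the block and 3 with DESeq2. An identifier without a symbol holds values identical to those of PSMC4 in all 4 libraries, so its level is 1 of 2 equal rows. In GENCODE v29, 4671 of the 6161 exon bases of PSMC1 also lie in NRDE2 on the opposite strand, and PSMC1P1, a pseudogene, read 8.42% of PSMC1 in the controls. PSMC5 changed least (0.03, adjusted p = 0.729, edgeR). Without Control 1, 2 ATPases remained called, PSMC2 and PSMC6.

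Of the 14 PSMD genes 8 rose and 6 did not pass (median 0.25), with 10 higher under library totals, 4 without Control 1 and 5 without Control 2. In the lid, which removes ubiquitin chains from substrates, 5 of 8 subunits rose. PSMD6 had the largest rise of any member, from 105 and 94.7 TPM to 193 and 184 TPM (0.73, SE 0.08, adjusted p = 0.0013, edgeR), but it missed the 1.5-fold test (edgeR adjusted p = 0.0766). PSMD12 rose from 163 and 165 TPM to 267 and 234 TPM (0.43, SE 0.07, adjusted p = 0.00456, edgeR). PSMD11 (0.30), PSMD3 (0.26) and PSMD14 (0.24), the deubiquitinating enzyme of the lid, also rose, while PSMD7 (-0.03), PSMD8 (0.09) and PSMD13 (-0.14) did not pass. PSMD7 and PSMD13 changed sign with library totals (0.15 and 0.042).

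Both large scaffolds of the base rose. PSMD2 rose from 248 and 241 TPM to 384 and 350 TPM (0.41, SE 0.06, adjusted p = 0.00403, edgeR) and PSMD1 from 90.1 and 95.7 TPM to 140 and 132 TPM (0.37, SE 0.06, adjusted p = 0.00693, edgeR). Without Control 1, PSMD1 did not pass (adjusted p = 0.0763, edgeR). The ubiquitin receptor PSMD4 did not pass (0.15, adjusted p = 0.102, edgeR). The 3 PSMD genes whose products are chaperones of base assembly differed from each other. PSMD10, also called gankyrin, rose from 25.8 and 26.3 TPM to 42.0 and 41.4 TPM (0.50, SE 0.07, adjusted p = 0.0034, edgeR), whereas PSMD9 (-0.22, adjusted p = 0.0752) and PSMD5 (0.02, adjusted p = 0.899, edgeR), the PSMD gene with the smallest change, did not pass.

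Among the alternative caps, the 3 PA28 genes fell and the fourth activator did not pass (median -0.51). PSME1 and PSME2 encode the partner subunits of the interferon-inducible cap that is linked to antigen processing, and their genes lie close together on chromosome 14 (24136158 to 24138967, plus strand, and 24143362 to 24147570, minus strand). PSME2 fell from 58.6 and 57.8 TPM to 42.2 and 43.7 TPM (-0.62, SE 0.07, adjusted p = 0.00204, edgeR). PSME1 fell from 82.3 and 74.6 TPM to 62.2 and 65.6 TPM (-0.47, SE 0.09, adjusted p = 0.00928, edgeR), and without Control 1 it did not pass (-0.40, adjusted p = 0.0532, edgeR). Each has an identical partner identifier without a symbol, so these levels too are 1 of 2 equal rows. PSME3, which encodes a nuclear cap, fell from 203 and 197 TPM to 158 and 153 TPM (-0.54, SE 0.06, adjusted p = 0.0016, edgeR). PSME4, the gene of the large nuclear cap PA200, read 32.3 and 34.1 TPM in the controls and 45.1 and 35.8 TPM in the CEBPB libraries (0.10, SE 0.10, adjusted p = 0.453, edgeR), and -0.024 without CEBPB 1. The inhibitor gene PSMF1 read 58.7 and 56.9 TPM in the controls and 52.5 and 57.6 TPM in the CEBPB libraries, where the groups overlapped (-0.25, SE 0.09, adjusted p = 0.0742, edgeR). It was called lower without CEBPB 2 (-0.35).

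The assembly chaperones had the lowest median of any part with 4 or more members (-0.79), with 3 of 4 lower. PSMG4 fell from 26.8 and 21.4 TPM to 14.0 and 9.53 TPM (-1.21, SE 0.19, adjusted p = 0.00501, edgeR). PSMG1 fell from 105 and 90.5 TPM to 67.5 and 54.6 TPM (-0.86, SE 0.12, adjusted p = 0.00275, edgeR), and PSMG3 from 43.8 and 45.5 TPM to 34.2 and 27.0 TPM (-0.73, SE 0.10, adjusted p = 0.00338, edgeR). For each of them both CEBPB libraries lay below both controls. PSMG1 and PSMG2 form one chaperone pair and PSMG3 and PSMG4 another. PSMG2 read 76.4 and 65.0 TPM in the controls and 70.0 and 65.0 TPM in the CEBPB libraries (-0.25, SE 0.10, adjusted p = 0.0852, edgeR).

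The summed TPM of all 48 members was 7548 and 7415 in Control 1 and Control 2 and 9365 and 8855 in CEBPB 1 and CEBPB 2, or 0.742% to 0.936% of all TPM. These sums are scaled by library totals, so their rise includes the shift of 0.18 on the log2 scale given above. Ratios of sums within a library do not depend on scaling. Relative to the constitutive core (alpha and constitutive beta genes together), the PSMD genes summed to 45.6% and 45.8% in the controls and 50.0% and 49.5% in the CEBPB libraries. The ATPases summed to 20.4% and 21.9% in the controls and 22.9% and 24.3% in the CEBPB libraries. Summed RNA of the PSMD and of the ATPase genes was thus higher relative to that of the core genes in both CEBPB libraries. The PSMD sum includes PSMD5, PSMD9 and PSMD10, whose products are chaperones. PSME1 and PSME2 together stood at 3.48% and 3.35% of the core in the controls and at 2.06% and 2.29% in the CEBPB libraries. PSME3 stood at 5.03% and 4.99% against 3.13% and 3.20%, and the assembly chaperones at 6.24% and 5.63% against 3.67% and 3.28%. None of these 5 ratios overlapped between the groups, and none was tested. Single identifiers did not overlap in TPM for 77.4% of all identifiers, so a lack of overlap was common here. For the ATPases, the 2 libraries of each group lay farther apart than the nearest values of the groups (21.9% and 22.9%).

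The promoter table matched 42 of the 48 members (51 starts). The interferon-stimulated response element printed above was found in 7 of them, or 16.7%, against 4.38% of 27305 genes and 3.57% of all promoters. Of the 7, 4 were lower in the CEBPB libraries (PSMB10, PSME1, PSME2 and PSMG4), 1 was higher (PSMB4) and 2 did not pass (PSMA4 and PSMB8), while 6 lower and 16 higher members were matched in all. PSMB10, PSME2 and PSMG4 carry it as GAAAGCGAAA 21, 28 and 33 bases before the start, and PSME1 and PSMB8 as its reverse complement TTTCGCTTTC at 6 bases after and 4 bases before the start. The antioxidant or NRF1 type element was in 15 members (35.7%, against 16.1% of genes), of which 4 were higher, 3 lower and 8 did not pass. A gamma activated site (TTCNNNGAA) was in 8 members (19%, against 9.38% of genes), with 5 higher, 1 lower, 1 not past the test and PSMA8 untested. A C/EBP type site (TTGCNNAA) was in 3 (7.14%, against 12.7% of genes), with 2 higher. No matches of different motifs overlapped in these promoters. Matches describe the letters in this window and do not show binding.

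Other genes of the proteasome system were taken as lists. Of the further subunits and associated factors 50% were called, of the NRF1 route 58.3% and of the ubiquitin genes 83.3%. The shares were 55.6% for shuttles and segregase, 66.7% for the interferon gamma route and 46.7% for class I peptide supply and loading. Over all identifiers 48.5% were called, and with library totals 32.3% were higher and 17.2% lower. Of 12 further subunits and associated factors 5 rose and 1 fell (median 0.18), with 9 and 1 under library totals, while 3 rose without Control 1 and 2 without Control 2. ZFAND5, a stimulator of the proteasome, rose from 95.3 and 105 TPM to 204 and 187 TPM (0.78, SE 0.07, adjusted p = 0.00093, edgeR). AKIRIN2, which carries proteasomes into the nucleus, rose from 50.8 and 47.6 TPM to 112 and 90.2 TPM (0.86, SE 0.10, adjusted p = 0.00183, edgeR). UCHL5, a deubiquitinating enzyme of the cap, fell from 238 and 227 TPM to 182 and 182 TPM (-0.53, SE 0.07, adjusted p = 0.00228, edgeR). POMP, the chaperone of beta ring assembly (0.04, adjusted p = 0.599), and SEM1, the smallest lid subunit (0.16, adjusted p = 0.0846, edgeR), did not pass. Both were picked after their values were seen.

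In the NRF1 route 5 of 12 genes rose and 2 fell (median 0.19). NFE2L2, the gene of the related factor NRF2, rose from 51.7 and 51.7 TPM to 168 and 151 TPM (1.44, SE 0.07, adjusted p = 0.000169, edgeR). SYVN1, an endoplasmic reticulum ubiquitin ligase, rose from 20.7 and 20.5 TPM to 38.3 and 35.3 TPM (0.65, SE 0.07, adjusted p = 0.00161, edgeR). DDI2, the protease that activates NRF1, fell from 16.3 and 17.5 TPM to 12.7 and 10.9 TPM (-0.70, SE 0.11, adjusted p = 0.00438, edgeR). NFE2L1 itself, picked after its value was seen, was at 160 and 141 TPM in the controls and 165 and 190 TPM in the CEBPB libraries (0.06, adjusted p = 0.698, edgeR), with values of -0.078 without CEBPB 2 and -0.028 without Control 2. With recovered reads 4 genes of this list fell.

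Of 6 genes for ubiquitin and its activation 3 rose and 2 fell (median 0.065). UBB, which encodes chained ubiquitin, rose from 868 and 867 TPM to 1387 and 1371 TPM (0.49, SE 0.06, adjusted p = 0.00191, edgeR). RPS27A, which encodes ubiquitin fused to a ribosomal protein, fell from 3020 and 2839 TPM to 1996 and 2095 TPM (-0.70, SE 0.08, adjusted p = 0.00147, edgeR). Without Control 1, 1 gene of the list fell. Of 9 tested genes for shuttles and the p97 segregase cofactors 4 rose and 1 fell (median 0.19), and 2 rose without Control 2. UBQLN1, a shuttle, rose from 80.3 and 83.4 TPM to 153 and 150 TPM (0.71, SE 0.06, adjusted p = 0.00082, edgeR) and the segregase cofactor NPLOC4 from 65.8 and 68.4 TPM to 106 and 114 TPM (0.54, SE 0.09, adjusted p = 0.00491, edgeR). UBQLN4 fell from 33.6 and 35.3 TPM to 25.2 and 26.3 TPM (-0.60, SE 0.08, adjusted p = 0.00338, edgeR).

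PSMB10, PSME1 and PSME2 are known as interferon gamma target genes, so the list of that route is given beside them. Of its 9 tested genes 5 rose and 1 fell, and 2 fell without Control 2 or with recovered reads. IFNGR1, a receptor chain, rose from 67.9 and 65.2 TPM to 194 and 179 TPM (1.31, SE 0.06, adjusted p = 0.000195, edgeR). The transcription factor gene IRF8 fell from 166 and 166 TPM to 38.5 and 41.3 TPM (-2.24, SE 0.08, adjusted p = 0.000121, edgeR). IRF1, picked after its value was seen, read 13.2 and 17.1 TPM in the controls and 46.6 and 18.5 TPM in CEBPB 1 and CEBPB 2 (0.91, adjusted p = 0.121, edgeR), and it passed without CEBPB 2 (1.40, adjusted p = 0.00673) and with recovered reads (0.83, adjusted p = 0.00104, edgeR).

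For the supply and loading of class I peptides, the step after the proteasome, 5 of 15 tested genes rose and 2 fell (median 0.30), with 8 and 1 under library totals. NLRC5, the activator of class I genes, rose from 26.1 and 29.7 TPM to 71.4 and 55.0 TPM (1.00, SE 0.13, adjusted p = 0.00228, edgeR), and the chaperone gene CANX from 113 and 111 TPM to 194 and 175 TPM (0.54, SE 0.06, adjusted p = 0.00186, edgeR). B2M rose (0.38, adjusted p = 0.00972, edgeR) but did not pass without Control 2 (0.0795). TAP1 and TAP2 encode the partner subunits of the peptide transporter and stand beside PSMB8 and PSMB9. TAP2 fell from 10.51 and 10.99 TPM to 4.07 and 4.36 TPM (-1.53, SE 0.14, adjusted p = 0.000969, edgeR), and TAP1 rose from 17.2 and 14.4 TPM to 23.3 and 24.9 TPM (0.43, SE 0.12, adjusted p = 0.0351, edgeR) but not with DESeq2 (adjusted p = 0.071). TAP1 also did not pass without CEBPB 1 (0.052), CEBPB 2 (0.134) or Control 2 (0.145). B2M and TAP1 were picked after their values were seen, and the levels of TAP1 and TAP2 carry the same uncertainty as those of PSMB8 and PSMB9. Without Control 2, 2 genes of this list rose, and 1 fell without Control 1, without Control 2 or without CEBPB 1.

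**Figure D4:**
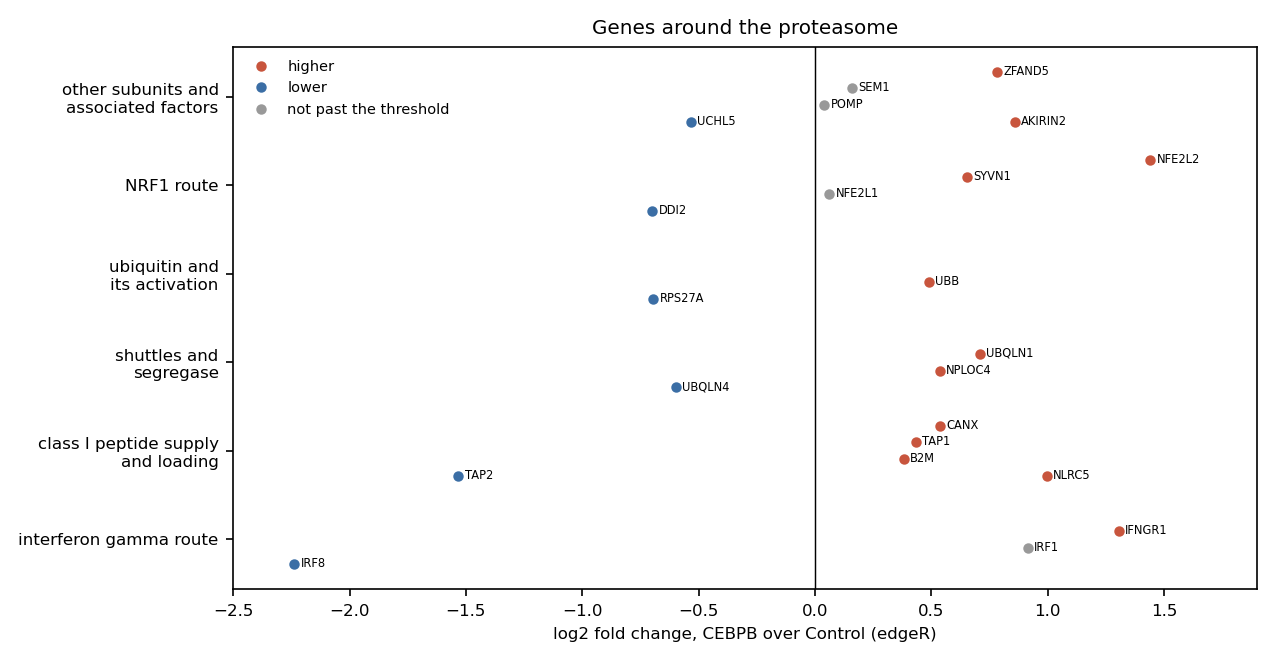
log2 fold change (CEBPB over Control, edgeR) of the genes described in the text from the 6 lists around the proteasome, each point a gene, red for higher, blue for lower and grey for not past the threshold. Points are staggered vertically for legibility. NFE2L2 (1.44) and IFNGR1 (1.31) lie farthest to the right and IRF8 (-2.24) farthest to the left.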

How the data were processed

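RNA-seq was measured in 4 OCI-AML3 libraries. Per the submitters' processing notes, reads were trimmed with Trimmomatic 0.39 and quantified with kallisto 0.46.2 on GRCh38. Annotation release, strand setting and transcript-to-gene step are not given in the sources used here. The authors deposited estimated counts, TPM and effective lengths per Ensembl identifier. Within a library the deposited counts equal TPM times 1 constant, so they carry no transcript length. Counts that also use the deposited lengths (recovered reads) came out whole within 0.01 for 58.7% to 60.8% of values and served only as an alternative.

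Counts were rounded, filtered with filterByExpr, scaled by TMM and tested with edgeR 4.0.16 (quasi-likelihood, threshold 0.05 on Benjamini-Hochberg adjusted p), with limma 3.58.1 and DESeq2 1.42.0 in R 4.3.3 as alternatives. The fit was also run on simulated counts in which few genes changed, unlike these data, so its outcome is not used here. Ratios were tested with scipy 1.17.1. Symbols came from a table of gene IDs, gene coordinates from GENCODE v29, and 250 bases before to 50 after each start from RefSeq. The 2 libraries of a group differed by more than sampling noise (chi-square per degree of freedom 4.66 in Control and 8.86 in CEBPB). With 2 libraries a group, precision is limited. The members and lists were chosen with earlier results of these data known. Named were each immunoproteasome subunit with its partner, each activator and the inhibitor, up to 4 of the largest called rises and falls and the smallest change in every other class, untested members, and up to 3 genes with the smallest adjusted p in each list, with each direction represented. Others are marked as picked later. Some genes that the rule names are not reported here. Alternatives were other scalings, filters, pseudocounts of 1 and 0.1 TPM, tools, a 1.5-fold test, a replicate block and leaving out each library.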

Additional observations from a re-analysis of the deposited data

How the results depend on the processing

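Across all identifiers, 3251 were higher and 3390 lower, against 1186 and 1188 in the test against a 1.5-fold change. In that test members gave 0 higher and 3 lower, and the alpha ring, beta ring, ATPases and PSMD genes each gave 0 higher and the activators 0 lower. With library totals and with limma on log2(TPM + 1) or log2(TPM + 0.1), 26 members, 4 alpha and 6 constitutive beta subunits were higher. DESeq2 called 1 alpha subunit lower. Recovered reads gave 2 alpha subunits and 1 PSMD gene lower. Leaving out a library also reduced the calls over all identifiers. Leaving out each library in turn, members higher ranged from 6 (without Control 1) to 18 (without CEBPB 1), alpha subunits higher from 0 to 2, beta subunits higher from 0 to 4 and lower from 0 to 1, ATPases higher from 2 to 4, PSMD genes higher from 4 to 8 and PSMF1 lower from 0 to 1.

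Some small changes turned sign. With library totals and both limma fits PSMA4 was 0.13, PSMA7 0.035, PSMD7 0.15 and PSMD13 0.042, 0.041 and 0.042. PSMD7 was also 6.451e-06 with recovered reads. Leaving out each library, PSMB9 ranged from -1.05 to 0.20 (without Control 1), PSMC5 from -0.016 (CEBPB 2), with -0.0006732 without Control 1, to 0.092, PSMD5 from -0.083 (Control 2) to 0.12, PSMD7 from -0.089 to 0.034 (Control 1), with 0.0016 without CEBPB 2, PSME4 from -0.024 (CEBPB 1) to 0.23 and NFE2L1 from -0.078 (CEBPB 2), with -0.028 without Control 2, to 0.20. The cause was not tested.

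With a replicate block, 3174 identifiers were higher and 3308 lower, and 15 members were higher and 7 lower. Deviations of libraries with the same number correlated at -0.0131. With 2 libraries a group the deviations mirror each other, so both pairs gave this value and crossed pairs gave 0.0131. This cannot show whether libraries with the same number shared a batch or culture. Without PSMB8, PSMB9 and the 3 members with an identical partner, an alternative chosen after seeing the data, 16 of 41 were higher and 5 lower.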

Other observations

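The deposited effective length of a gene moves with the mix of its transcripts. PSMD5 had 2414.8 bases in Control 2, 2108.5 in Control 1, and 2613.6 and 2587.9 in CEBPB 1 and CEBPB 2, a ratio of means of 1.15. PSMD9 had 993 and 1001 bases in the controls and 1106 and 1187 in the CEBPB libraries, also 1.15. The inhibitor gene PSMF1 had 1980.3 and 2033 bases in the controls and 2355 and 2187 in the CEBPB libraries, or 1.13. Of the tested members, 6.52% were past a 1.1-fold ratio, against 25.6% of all tested identifiers. These lengths were not tested.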
